A study of Schizosaccharomyces pombe with 72 samples.

Results

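The fission yeast strain that lacks both CHD remodelers, hrp1Δhrp3Δ, was compared directly with the strain labelled hrp3Δ, to measure what the loss of Hrp1 adds in a strain labelled as lacking Hrp3. The comparison rests on 6 of the 72 mRNA libraries of the series, the 3 of each strain in experiment B, taken by their labels. The hrp1Δ and WT libraries of the same experiment (3 each) gave the effect of the same deletion in cells with Hrp3. All 4 strains were h+ and carried ade6-M216, ura4-D18 and leu1-32, and each group was 1 strain, grown untreated in YES medium at 32 °C to an OD600 of about 0.5. The double mutant had hrp1del::kanMX with a deletion written as hrp3del, hrp3Δ had hrp3del::kanMX, hrp1Δ had hrp1del::kanMX, and WT had no deletion. Because the hrp3 alleles of the first pair differ, and each strain is a single isolate, loss of hrp1 cannot be told apart from that allele or from other differences between the 2 strains. No label states that replicates were separate cultures, so p-values measure the spread between these libraries, which may be technical.

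Hrp1 and Hrp3 are the CHD-type nucleosome remodelers of Schizosaccharomyces pombe, ATPases that slide and space nucleosomes over transcribed genes. Ordered nucleosomes over gene bodies limit initiation from cryptic promoters, and where that order is lost, transcripts can start inside a gene and run along it, in the sense or the antisense direction. Hrp1 is also known for its part in chromatin at promoters, for the loading of the centromeric histone CENP-A and for heterochromatin silencing, and it shares some of these tasks with Hrp3.

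Counts were available for both strands of each annotated transcript. The count of a protein-coding entry is its sense level, and the count of the reverse complement of that entry is its antisense level. Of 5112 protein-coding genes, 4937 had enough counts to be tested in sense and 3306 in antisense. Library totals lay between 7226334 and 8453074 counts in hrp1Δhrp3Δ and between 7222368 and 8638487 in hrp3Δ, so 3 counts stand for 0.347 to 0.415 CPM. CPM are counts scaled to a library total of 1000000, and intervals and floors cover counting error only. A feature was called at an adjusted p under 0.05 (edgeR quasi-likelihood test, two-sided, Benjamini-Hochberg over all features). Fold changes are on the log2 scale, hrp1Δhrp3Δ over hrp3Δ. Their standard errors are approximate, taken as the absolute change divided by the square root of the test's F statistic. Of 6 markers of h- cells, the pheromone precursor genes mfm1 and mfm3 averaged 0.134 and 0.166 CPM in hrp1Δhrp3Δ, against 0.0847 and 0.0777 CPM in hrp3Δ, while mam1 averaged 21.7 CPM against 17.9 CPM and mam3 38.6 CPM against 32.2 CPM. The 4 h- markers with enough counts had a median log2 fold change of 0.36 and the 2 h+ markers one of -0.17. None of these and of the meiotic markers, such as the transcription factor gene mei4 with 5.65 CPM against 4.67 CPM, was called, and their part in the results was not tested.

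The deleted genes were examined first. Counts of hrp1 (SPAC1783.05) stood at 11.7, 9.55 and 9.58 CPM in hrp1Δhrp3Δ, against 50.2, 61.7 and 51.6 CPM in hrp3Δ (log2 fold change -2.50 ± 0.12 SE, edgeR adjusted p 1.42e-08). The 2 groups did not overlap, and the hrp1Δ libraries kept a like remainder, 9.70 ± 0.73 CPM. No counts of hrp3 (SPAC3G6.01) were found in the 3 hrp1Δhrp3Δ libraries, against 23.6, 26 and 26.3 CPM in hrp3Δ, which makes it at least 66.3-fold lower at 3 counts per library. The libraries labelled hrp3Δ thus held hrp3 counts, at a level below the 53.4 to 60.4 CPM of WT, and also 38.2, 29.1 and 37.2 CPM of hrp3 antisense counts, where hrp1Δhrp3Δ again had 0 (at least 91.2-fold lower). The counts do not tell whether the hrp3del::kanMX allele removes all of hrp3, so hrp3Δ stands below for the libraries labelled so, and every difference from them is one between a strain with no hrp3 counts and one with some. The marker ura4 was at 0 in every library on both strands.

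Annotated entries beside the 2 deleted genes differed as well. The non-coding SPNCRNA.803, which overlaps hrp1 on the other strand, had no counts in hrp1Δhrp3Δ and 74.6, 66.1 and 71.4 CPM in hrp3Δ, at least 185-fold lower, and it was also at 0 in hrp1Δ. Next to it, atg12, an autophagy conjugation protein, averaged 2.79 ± 0.569 CPM against 6.84 ± 1.44 CPM (SD, n = 3 each; log2 fold change -1.38 ± 0.30, edgeR adjusted p 0.01). Antisense counts of prp40, a splicing factor gene next to hrp3, stood at 4.26, 4.57 and 4.26 CPM in hrp1Δhrp3Δ, against 54.4, 41.5 and 52.5 CPM in hrp3Δ (log2 fold change -3.58 ± 0.21, adjusted p 5.40e-08). All hrp3Δ libraries were high there, all WT libraries were at 1.53 CPM or below, and the double mutant lay between. Values at the 2 deleted loci and their neighbours depend on how each allele was built, and that part was not tested.

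Antisense RNA was more abundant in hrp1Δhrp3Δ than in the libraries labelled hrp3Δ, which still held hrp3 counts. Antisense counts made up 2.83%, 2.76% and 2.79% of all counts in hrp1Δhrp3Δ (2.79% ± 0.0345, SD, n = 3), against 2.25%, 1.99% and 2.14% in hrp3Δ (2.13% ± 0.127). Every library of the double mutant lay above every hrp3Δ library, by 1.31 times on average and 0.665 percentage points (exact two-sided permutation test, p = 0.1, the smallest p that 3 against 3 allows). With TPM, which scale counts by effective length, the difference was smaller, 0.243 points and a ratio of 1.2. In cells with Hrp3, hrp1Δ had 1.41%, 1.41% and 1.48%, against 1.05%, 1.15% and 0.988% in WT, a ratio of 1.35 and a difference of 0.371 points (exact permutation p = 0.1). The 95% Wilson interval of hrp1Δhrp3Δ replicate 1, 2.815% to 2.838%, was narrower than the spread between replicates.

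**Figure D1:**
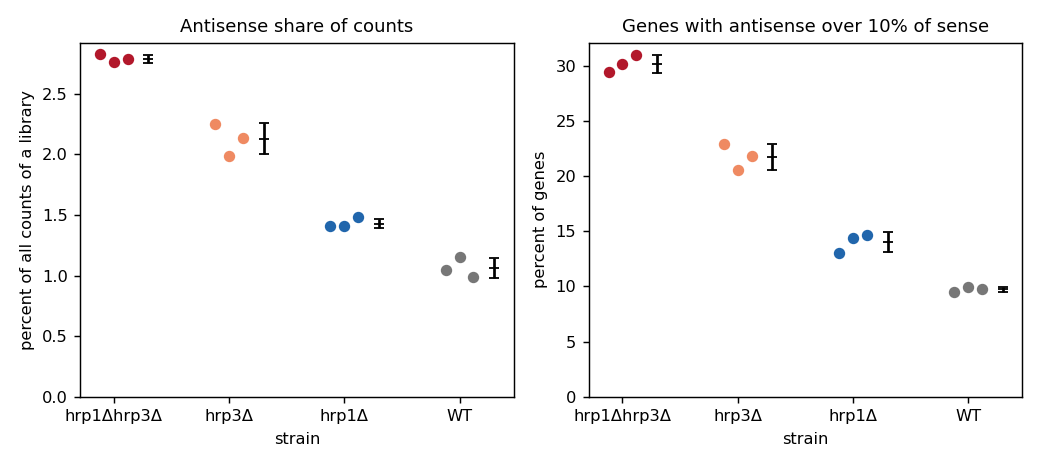
Antisense share of each library's counts in percent (left) and the percentage of genes whose antisense count exceeded 10% of the sense count (right), for hrp1Δhrp3Δ, hrp3Δ, hrp1Δ and WT. Points are libraries, and the bar beside them is the mean with the SD of 3. In both panels the 3 hrp1Δhrp3Δ libraries lie above all hrp3Δ libraries, and the 3 hrp1Δ libraries above all WT libraries.

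Per gene, the rise was broad and mostly small. Antisense features were called higher in hrp1Δhrp3Δ at 454 of 3306 genes (13.7%) and lower at 46 (1.39%), with a median log2 fold change of 0.45 (quartiles 0.03 and 0.93), and 76.7% of all tested features were above 0. Of the called features, 332 rose by over 1 on the log2 scale. Without any 1 of the 6 libraries, 235 to 297 were called higher and 18 to 32 lower. Summed over genes, antisense counts came to 27900 CPM in hrp1Δhrp3Δ against 21250 CPM in hrp3Δ. Features called higher carried 3330 CPM, 50.0% of the net rise of 6650 CPM, and the 10 features with the largest gain carried 4.27%. The largest single difference was at brl1, a ubiquitin ligase of histone H2B, with a mean of 101 CPM against 58.8 CPM (not called, edgeR adjusted p 0.0563), and among the next was mok11, a glucan synthase gene, with 45.9 CPM against 15.9 CPM (log2 fold change 1.44).

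Sense levels moved less. Of 4937 genes, 98 were called higher (1.99%) and 268 lower (5.43%), the median log2 fold change was -0.06, and only 32 rose and 15 fell by over 1. Where the libraries were scaled on protein-coding sense counts alone, the median became 0.01 and the split 164 higher and 142 lower, so the balance of sense rises and falls depended on the scaling, while the antisense split there was 538 higher and 31 lower. Without any 1 library, 44 to 63 genes were called higher and 120 to 171 lower. Among annotated non-coding transcripts, 77 of 1213 were called higher (6.35%) and 32 lower (2.64%), with a median of 0.07. On the sense strand, 449 of the genes with antisense called higher were tested. Of these, 11 were called higher (2.45%) and 30 lower (6.68%), with a median of -0.05, against 1.82% and 5.01% with a median of -0.06 at the 2752 genes whose antisense was tested and not called.

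The balance of the strands within genes was read at hosts with no quantified gene on the other strand and at least 10 counts over both strands. Quantified genes are those with an entry in the counts, and 2422 of 5112 protein-coding genes had none on the other strand. Over all annotated genes, 4594 of the 5112 had one there, so reads of genes not quantified can still enter. Antisense counts exceeded 10% of sense counts at 29.4%, 30.1% and 31% of these hosts in hrp1Δhrp3Δ, against 22.9%, 20.5% and 21.8% in hrp3Δ. The same measure was 13.0%, 14.4% and 14.7% in hrp1Δ, against 9.49%, 9.91% and 9.77% in WT, so neither pair overlapped. Antisense outnumbered sense at 73, 69 and 74 genes in hrp1Δhrp3Δ, against 56, 54 and 56 genes in hrp3Δ, and at 36, 40 and 45 in hrp1Δ against 40, 41 and 38 in WT, where the groups overlapped.

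Features are ranked here and below among those whose groups did not overlap and whose higher group averaged at least 8 CPM, since lower features had larger but less certain changes. At thi5, a regulator of thiamine genes, antisense counts were 16.8, 18.7 and 21.5 CPM in hrp1Δhrp3Δ, against 2.08, 2.95 and 2.35 CPM in hrp3Δ (log2 fold change 2.86 ± 0.28, edgeR adjusted p 3.14e-05). The groups were far apart, and with Hrp3 present the feature rose too, to 6.86, 6.59 and 4.58 CPM in hrp1Δ, against 0.539, 1.31 and 0.337 CPM in WT. At rap1, which encodes a telomere-binding protein, the values were 19.5, 21.6 and 22.5 CPM against 3.47, 4.54 and 2.77 CPM (2.46 ± 0.25, adjusted p 3.86e-05). Here every double-mutant library was at least 4 times any hrp3Δ library. With Hrp3 present rap1 antisense also rose, at lower levels of 1.66, 0.799 and 0.944 CPM in hrp1Δ, against 0.269, 0.328 and 0.112 CPM in WT (2.04, adjusted p 0.016), and the interaction of 0.42 was not called (adjusted p 0.842). Antisense over fap1, a pipecolate oxidase gene, stood at 10.0, 7.89 and 9.58 CPM against 0.926, 1.60 and 1.52 CPM (2.67 ± 0.30, adjusted p 9.78e-05). The others of the 10 largest antisense rises under that limit, at wtf19, SPCC5E4.10c, the urease accessory gene ure4, sfp47, the guanosine diphosphatase gene gda1, the TFIIH subunit gene pmh1 and SPAC1399.02, ranged from 2.18 to 2.94. Of these, wtf19 belongs to a family of near-identical spore killer genes, so its counts are uncertain.

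Antisense levels that fell were fewer and smaller. Apart from hrp3 and prp40, the largest antisense fall under the same limit was over dip2, a ribosome biogenesis factor gene, with a mean of 2.68 ± 0.524 CPM in hrp1Δhrp3Δ, against 10.8 ± 1.77 CPM in hrp3Δ (SD, n = 3 each, log2 fold change -2.09 ± 0.26, edgeR adjusted p 0.000196). At pdi3, a protein disulfide isomerase gene, the values were 21.2, 20.3 and 17.9 CPM against 38.4, 31.8 and 36.7 CPM (-0.93 ± 0.17, adjusted p 0.00374). Both features were low in WT and hrp1Δ, at 2.25 CPM or below, so the double mutant lay between hrp3Δ and the strains with Hrp3. Over php2, a CCAAT-binding factor subunit, antisense fell by 1.23 (14.3, 19.2 and 15.3 CPM against 37.4, 31.3 and 39.2 CPM, adjusted p 0.000137), and over abc1 by 0.83 (adjusted p 0.00048). The calls at gup1, SPBC530.11c, sap1 and plo1 (-0.89 to -1.15) did not hold without single libraries. For gup1 and SPBC530.11c this was any library but hrp3Δ replicate 2 (edgeR adjusted p up to 0.0873 and 0.101), for sap1 hrp1Δhrp3Δ or hrp3Δ replicate 3 (up to 0.0756), and for plo1 hrp1Δhrp3Δ replicate 1 or hrp3Δ replicate 3 (up to 0.0556).

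At the loci that the study examined for antisense transcription, results were mixed. Antisense rose at 3 of 6, where 13.7% of all antisense features did: rap1 as above, spb70, a DNA polymerase alpha subunit, by 1.21 ± 0.22 (25.6 ± 1.71 CPM against 10.4 ± 0.401 CPM, SD, n = 3 each, edgeR adjusted p 0.00294), and taf5, a TFIID subunit, by 0.64 ± 0.13 (41.2, 36.3 and 43.7 CPM against 27.4, 24.4 and 21.5 CPM, adjusted p 0.00589). At orc4, an origin recognition subunit, the values were 90.0, 79.7 and 94.4 CPM in hrp1Δhrp3Δ and 88.1, 86.8 and 88.5 CPM in hrp3Δ (-0.08 ± 0.10, adjusted p 0.665), while WT had at most 2.95 CPM. For atg9, of autophagy, they were 47.5, 56.6 and 50.3 CPM against 39.7, 36.1 and 42.8 CPM (0.30 ± 0.14, adjusted p 0.19), and for crt10 the change was 1.13 ± 0.40 (adjusted p 0.0876). Sense levels of all 6 genes had changes between -0.14 and 0.14, none called. These loci were chosen by the study on such libraries and are no independent evidence of direction.

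**Figure D2:**
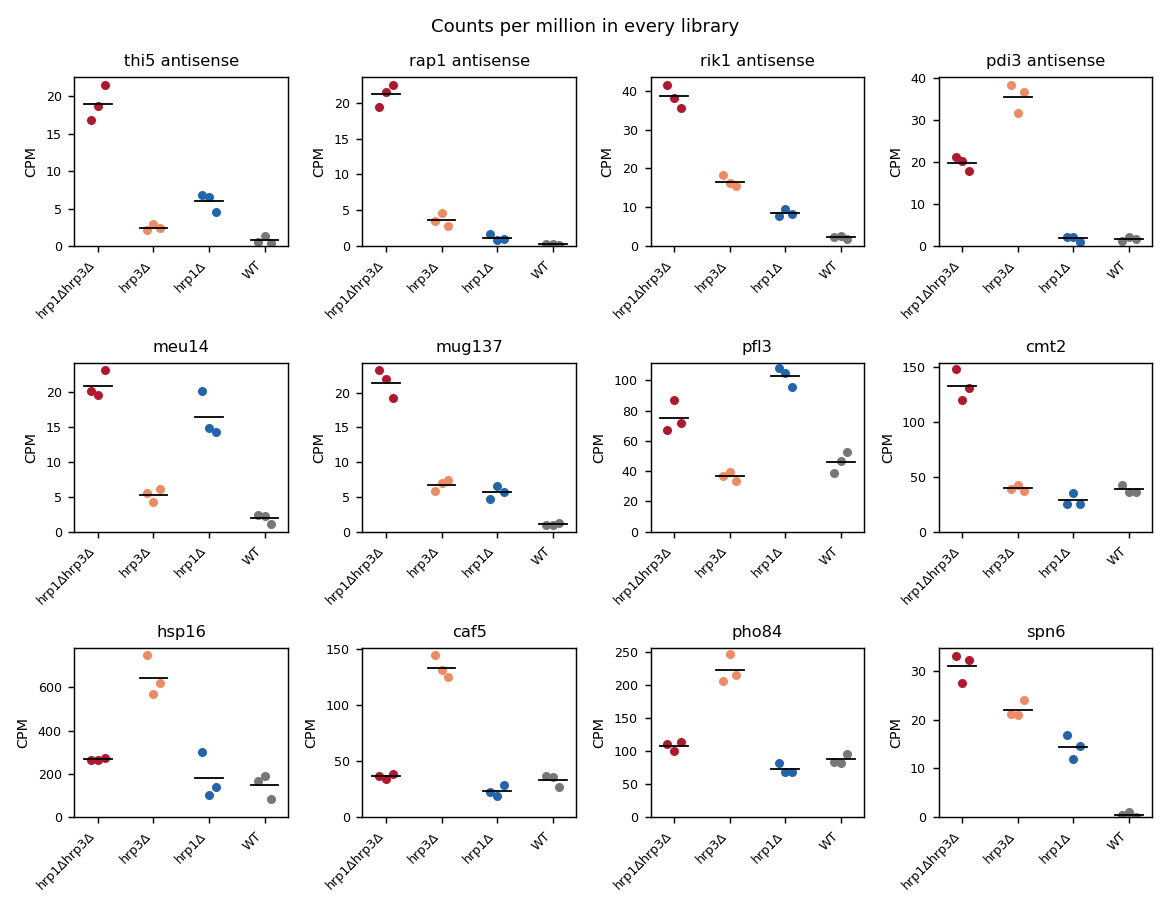
CPM in every library of hrp1Δhrp3Δ, hrp3Δ, hrp1Δ and WT for 12 features, each on its own axis that starts at 0, with bars at the group means. The hrp1Δhrp3Δ libraries lie above the hrp3Δ libraries for antisense of thi5, rap1 and rik1 and for meu14, mug137, pfl3, cmt2 and spn6, and below them for pdi3 antisense, hsp16, caf5 and pho84.

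The antisense change was next described by class of host gene, with hosts cut into 4 classes of equal number. By length of the entry, the median change was 0.35 in the shortest class (up to 849 bases), 0.53 and 0.46 in the middle classes and 0.49 in the longest (from 2013 bases), and the share called higher was 6.63%, 14.6%, 14.3% and 19.4%, with more counts behind longer features. By sense level, the median change was 0.41, 0.57, 0.53 and 0.32 from the lowest class to the highest. By antisense level, it was 0.62, 0.62, 0.45 and 0.18, while the share called higher went from 5.32% in the lowest class to 20.6% in the highest. Hosts with no quantified gene on the other strand had a median of 0.57 (14.9% called higher) and those with one had 0.36 (12.8%), where reads of the neighbour can enter. Hosts on chromosomes I, II and III had medians of 0.44, 0.44 and 0.50. Low features pass the filter through the group in which they are high, so these medians are descriptions.

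The features were also divided by other libraries, those labelled hrp3Δ in the first batch of experiment A, in which 982 of 1775 antisense features tested were called above WT (55.3%). Of the 959 of these that could be tested here, 195 rose further in hrp1Δhrp3Δ over hrp3Δ (20.3%) and 15 fell, with a median of 0.42. Of the 703 features not called in that batch, 61 rose (8.68%) and 22 fell, with a median of 0.09. Of the 45 called lower there, 2 rose and 6 fell, with a median of -0.18. Another 1599 features were too low to be tested in that batch, and 196 of them rose here (12.3%) and 3 fell, with a median of 0.67. They were low here too, at a median of 1.55 CPM, and low features pass the filter through the group in which they are high. Over all 3306 antisense features tested here, 13.7% rose and 1.39% fell. In that batch the libraries labelled hrp3Δ did not have lower hrp3 sense counts than WT, so the division goes by their label.

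**Figure D3:**
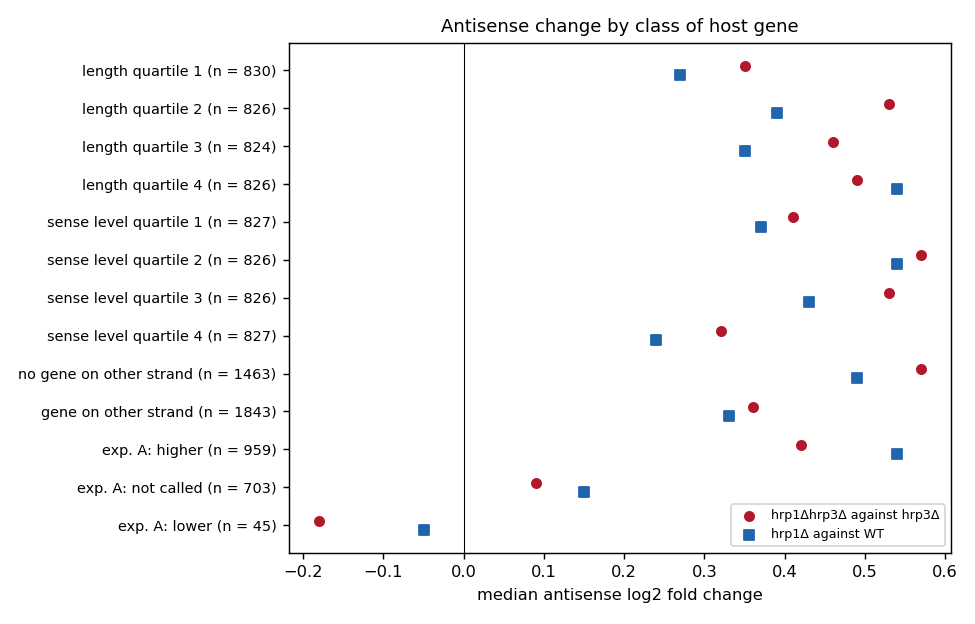
Median antisense log2 fold change by class of host gene, for hrp1Δhrp3Δ against hrp3Δ (circles) and hrp1Δ against WT (squares), with the number of features per class. Medians of the first comparison lie between 0.32 and 0.57 across length, sense level and overlap classes, and at -0.18, 0.09 and 0.42 for features lower, not called and higher in the libraries labelled hrp3Δ of experiment A.

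The effect of deleting hrp1 in cells with Hrp3 was set beside it. In hrp1Δ against WT, which share no library with the double-mutant comparison, 411 antisense features were called higher (12.4%) and 41 lower (1.24%), with a median of 0.39, and 154 sense genes were called higher (3.12%) and 357 lower (7.23%), with a median of -0.07. The balance of the 2 comparisons depended on the fit: with only its own 2 groups fitted, hrp1Δhrp3Δ against hrp3Δ had 782 antisense and 576 sense calls, and hrp1Δ against WT had 235 and 309. Leaving out hrp1 and hrp3, 155 antisense features were called higher in both comparisons, 34.2% of the 453 of the first and 37.8% of the 410 of the second, 4 were called lower in both and 8 went opposite ways. The 453 had a median of 1.33 in the double-mutant comparison and of 0.84 in hrp1Δ over WT. Across all 3304 antisense features the 2 changes correlated with r = 0.26, and across 4935 sense genes with r = 0.22, where the points share 1 scaling and 1 estimate of spread and genes are not independent replicates. For sense genes, 30 were called higher in both and 76 lower in both.

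The difference between the 2 comparisons was tested as an interaction, positive where the double mutant gained more over hrp3Δ than hrp1Δ did over WT. Since the hrp3 alleles of the double mutant and hrp3Δ differ, the interaction holds that difference too, and it cannot be told apart from loss of hrp1. It was called at 46 sense genes above 0 (0.932%) and 52 below (1.05%), and at 19 antisense features above (0.575%) and 49 below (1.48%), with medians of 0.00 and -0.02. The sporulation septin gene spn6 had 33.1, 27.7 and 32.4 CPM in hrp1Δhrp3Δ and 21.2, 21.1 and 24.1 CPM in hrp3Δ (0.40 ± 0.17, edgeR adjusted p 0.147), but 16.9, 12 and 14.7 CPM in hrp1Δ against 0.404, 0.984 and 0.112 CPM in WT (4.64), an interaction of -4.24 (adjusted p 1.68e-05). All 3 mutants were thus far above WT at spn6. Antisense of byr2, a kinase of the mating pheromone pathway, went opposite ways, at 32.9 ± 2.05 CPM against 11.0 ± 0.732 CPM (SD, n = 3 each, log2 fold change 1.49 ± 0.16, adjusted p 6.06e-05), and at 3.43, 3.70 and 4.31 CPM in hrp1Δ against 9.02, 6.99 and 9.66 CPM in WT (-1.33), an interaction of 2.83 (adjusted p 1.68e-05). Antisense of mib1 was 8.89, 11.8 and 8.98 CPM against 2.41, 2.12 and 1.84 CPM (2.13 ± 0.31, adjusted p 0.000688), while hrp1Δ had 0.702, 1.79 and 1.36 CPM and WT 2.83, 2.08 and 1.58 CPM. The interaction there was 2.99 (adjusted p 0.0028).

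**Figure D4:**
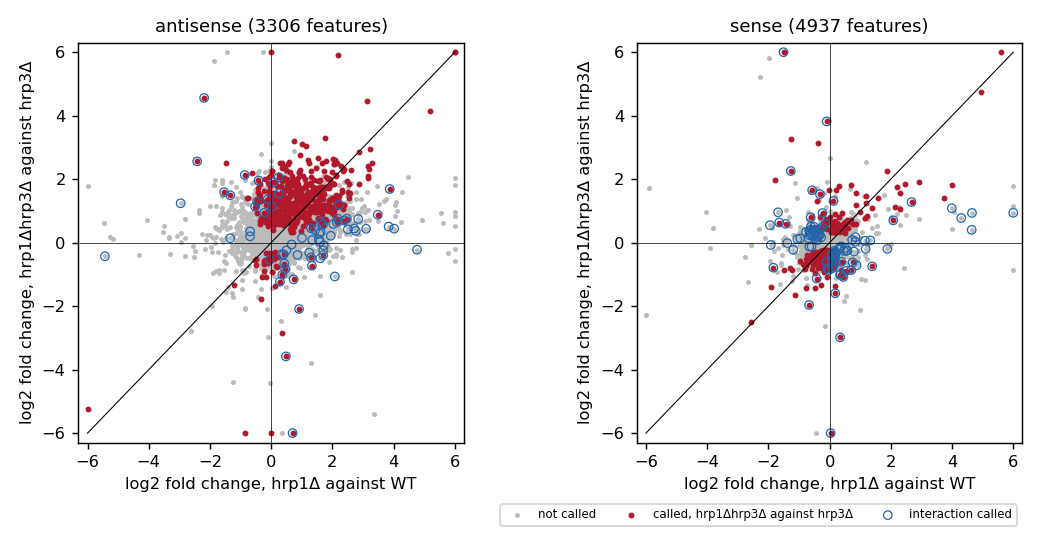
Log2 fold change of hrp1Δhrp3Δ over hrp3Δ (vertical) against that of hrp1Δ over WT (horizontal), for 3306 antisense features (left) and 4937 sense genes (right), with values beyond 6 drawn at the edge and the line of equal change. Red points were called in hrp1Δhrp3Δ against hrp3Δ, and blue rings had a called interaction. Most called antisense features lie above 0 on the vertical axis, and the 2 changes correlate weakly (r = 0.26 and 0.22 without hrp1 and hrp3).

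Heterochromatin and RNAi genes had antisense rises in a larger share than all genes and no sense change. Antisense rose at 7 of 19 tested genes (36.8%, against 13.7% of all), all 19 had a change above 0 and the median was 0.70, while 0 of 19 were called in sense, with a median of 0.02. In hrp1Δ over WT, antisense of this list was called higher at 7 genes and lower at 1, with a median of 0.77, where 12.4% of all antisense features were called higher. Among them were cid12 and the RNAi genes ago1 and dcr1, the telomere gene taz1, rik1, of the histone methyltransferase complex, and chp2, an HP1 protein. Antisense of rik1 stood at 41.6, 38.3 and 35.7 CPM in hrp1Δhrp3Δ, against 18.2, 16.3 and 15.4 CPM in hrp3Δ (1.12 ± 0.12, edgeR adjusted p 7.39e-05), and rose in hrp1Δ as well (7.69, 9.49 and 8.22 CPM, against 2.42, 2.62 and 1.80 CPM in WT). At taz1 it was 11.2, 12.3 and 9.82 CPM against 4.63, 5.28 and 2.77 CPM (1.29 ± 0.25, adjusted p 0.00446), with no rise in hrp1Δ (2.13, 1.70 and 2.02 CPM, against 2.69, 2.51 and 2.02 CPM in WT) and an interaction of 1.75 (adjusted p 0.0272). The call of ago1 (1.02, adjusted p 0.0104) was lost without hrp1Δhrp3Δ replicate 3 (0.0502), hrp1Δhrp3Δ replicate 1 (0.0507) or hrp3Δ replicate 1 (0.057).

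Genes of the Snf2 ATPase family other than the deleted pair had no sense call, with changes between -0.17 and 0.37. With the deleted pair counted, antisense was called higher at 3 of 17 genes of the family, hrp1 among them, and lower at 1, hrp3. The share called higher, 17.6%, was near the 13.7% of all antisense features. In hrp1Δ over WT, antisense was called higher at 6 of the 17, where 12.4% of all antisense features were. Antisense rose over irc20, a remodeler with a ubiquitin ligase domain, to 54.6, 52.2 and 51.3 CPM in hrp1Δhrp3Δ, against 21.6, 19.1 and 25.3 CPM in hrp3Δ (1.17 ± 0.10, edgeR adjusted p 1.14e-05), and over fft1 by 1.47 ± 0.28 (adjusted p 0.00444). The antisense entry of hrp1 itself rose, with 19.9, 17.7 and 16.8 CPM against 6.08, 4.07 and 5.73 CPM (1.69 ± 0.25, adjusted p 0.000688), over a locus that the deletion has changed. On that same strand the overlapping SPNCRNA.803 went from a mean of 70.7 CPM in hrp3Δ to 0 in hrp1Δhrp3Δ. Reads may be divided between the 2 entries, so a rise of antisense RNA over the hrp1 locus as a whole is not shown. None of 11 histone genes and none of 23 genes of the nuclear exosome and RNA decay was called in sense. Of 28 histone chaperone and elongation genes, 3 fell in sense (10.7%, against 5.43% of all genes), spt16 of FACT (-0.37), leo1 of the Paf complex (-0.30) and prf1 (-0.25), and none of the 3 calls was firm. That of spt16 was lost without hrp1Δhrp3Δ replicate 2 or 3 or hrp3Δ replicate 1 or 2 (edgeR adjusted p up to 0.0913), that of leo1 without any library but hrp3Δ replicate 2 (up to 0.129) and that of prf1 without any library (up to 0.105). With scaling on protein-coding counts, leo1 and prf1 had adjusted p of 0.0935 and 0.106.

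Among 20 genes of CENP-A loading and the kinetochore, 1 rose and 1 fell (1.99% and 5.43% of all genes). The falling gene was mis19, a CENP-A loading factor (-0.62, edgeR adjusted p 0.0297), and its call was lost without replicate 1 of either strain (0.074 and 0.133), hrp1Δhrp3Δ replicate 3 (0.112) or hrp3Δ replicate 2 (0.0517). The inner kinetochore gene cnp3, which encodes CENP-C, had 39.8, 67.4 and 42.2 CPM in hrp1Δhrp3Δ, against 26, 25 and 31 CPM in hrp3Δ (0.78 ± 0.21, edgeR adjusted p 0.027). It had 256, 264 and 277 CPM in hrp1Δ, against 81.6, 113 and 120.0 CPM in WT, so hrp1Δhrp3Δ and the libraries labelled hrp3Δ were both below WT. The call was lost without hrp3Δ replicate 1 (adjusted p 0.0922), hrp3Δ replicate 2 (0.095) or hrp1Δhrp3Δ replicate 2 (0.123). In antisense, 2 of the 18 tested genes of this list were called higher and 0 lower, where 13.7% of all antisense features were called higher. Antisense over cnp20, a CENP-T gene, rose by 1.81 ± 0.28 (12.9, 12 and 12.9 CPM against 4.51, 2.33 and 3.32 CPM, adjusted p 0.000954). The other antisense call, at scm3 (1.07, edgeR adjusted p 0.043), was lost without any 1 of the 6 libraries (up to 0.136).

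Some meiotic genes were higher in the double mutant. Of 92 tested genes named mug or meu, which are induced in meiosis, 12 rose (13.0%, against 1.99% of all genes) and 0 fell, with a median of 0.10, and 6 to 9 were called without any 1 library. Some of them passed the filter only through hrp1Δhrp3Δ, as did mug128, with 2.12 CPM there, 0.541 CPM in hrp3Δ, 0.302 CPM in hrp1Δ and 0.0364 CPM in WT. Such genes can be called higher but hardly lower, so the 13.0% and 1.99% are not like for like. In hrp1Δ against WT, 18 of the 92 rose and 5 fell, where 3.12% of all genes rose and 7.23% fell. The forespore membrane gene meu14 had 20.1, 19.5 and 23.1 CPM in hrp1Δhrp3Δ, against 5.53, 4.29 and 6.08 CPM in hrp3Δ (1.90 ± 0.20, edgeR adjusted p 6.64e-05), and mug137 had 23.2, 21.9 and 19.3 CPM against 5.79, 7 and 7.48 CPM (1.58 ± 0.19, adjusted p 0.000158). In both, each double-mutant library was over 2.5 times any hrp3Δ library. At mug62 the values were 6.89, 8.03 and 6.27 CPM against 1.62, 1.23 and 1.25 CPM (2.27 ± 0.36, adjusted p 0.00134).

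Other meiotic lists had few calls. In sporulation and the meiotic divisions 4 of 22 rose (18.2%, against 1.99% of all genes) and 0 fell (median 0.19): meu14, mde3, fzr3 and the spindle pole gene spo13, which had 10.5, 12.2 and 8.28 CPM in hrp1Δhrp3Δ, against 4.98, 3.44 and 5.54 CPM in hrp3Δ (1.07 ± 0.22, edgeR adjusted p 0.00633). The call of mde3 (1.98, adjusted p 0.0258) was lost without any 1 of the 6 libraries (up to 0.112). This gene passed the filter only through hrp1Δhrp3Δ (2.15 CPM, against 0.497 CPM in hrp3Δ, 0.0844 CPM in hrp1Δ and 0.281 CPM in WT). Lists with such members lean to rises, so their shares are not like for like with that of all genes. Of the 33 tested middle meiotic genes among those that the study lists as higher on hrp3 deletion, a list chosen on data of this series, 6 rose (18.2%, against 1.99% of all genes) and 0 fell, with a median of 0.40. In hrp1Δ over WT, 15 of these rose and 2 fell, with a median of 1.23, where 3.12% of all genes rose and 7.23% fell. Meiotic recombination had 1 of 14 called higher, mde2, a call lost without any 1 of the 6 libraries (edgeR adjusted p up to 0.141). The gene mde2 also passed the filter only through hrp1Δhrp3Δ (2.88 CPM, against 0.913 CPM in hrp3Δ, 0.626 CPM in hrp1Δ and 0.312 CPM in WT). Mating and entry into meiosis had 1 of 16 called higher, byr2, at 39.2, 40.8 and 42.4 CPM against 28, 30.4 and 27.7 CPM (0.42 ± 0.10, adjusted p 0.0123), lost without hrp3Δ replicate 3 (0.0588), hrp1Δhrp3Δ replicate 3 (0.0596) or hrp3Δ replicate 1 (0.0607). Genes nested inside a gene on the other strand had 11 higher and 11 lower of 189 (5.82% each way, against 1.99% higher and 5.43% lower of all genes), with a median of -0.06.

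Flocculation genes rose at 4 of 10 (against 1.99% of all genes), and 0 fell (median 0.23). The flocculin gene pfl3 had 67.1, 86.9 and 71.8 CPM in hrp1Δhrp3Δ, against 36.8, 39.4 and 33.5 CPM in hrp3Δ (0.95 ± 0.15, edgeR adjusted p 0.000854), and in hrp1Δ 108, 105 and 95.8 CPM against 39.0, 46.9 and 52.8 CPM in WT. A second flocculin gene, pfl8, rose by 0.72 ± 0.14 (adjusted p 0.00547). The call of pfl7 (0.63) was lost without any library but hrp1Δhrp3Δ replicate 2 (adjusted p up to 0.143), and that of gsf2 (0.51) without replicate 1 or 3 of either strain (up to 0.11). In addition, pfl7 was lower in hrp1Δ than in WT (-1.65), an interaction of 2.28 (adjusted p 0.000229).

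**Figure D5:**
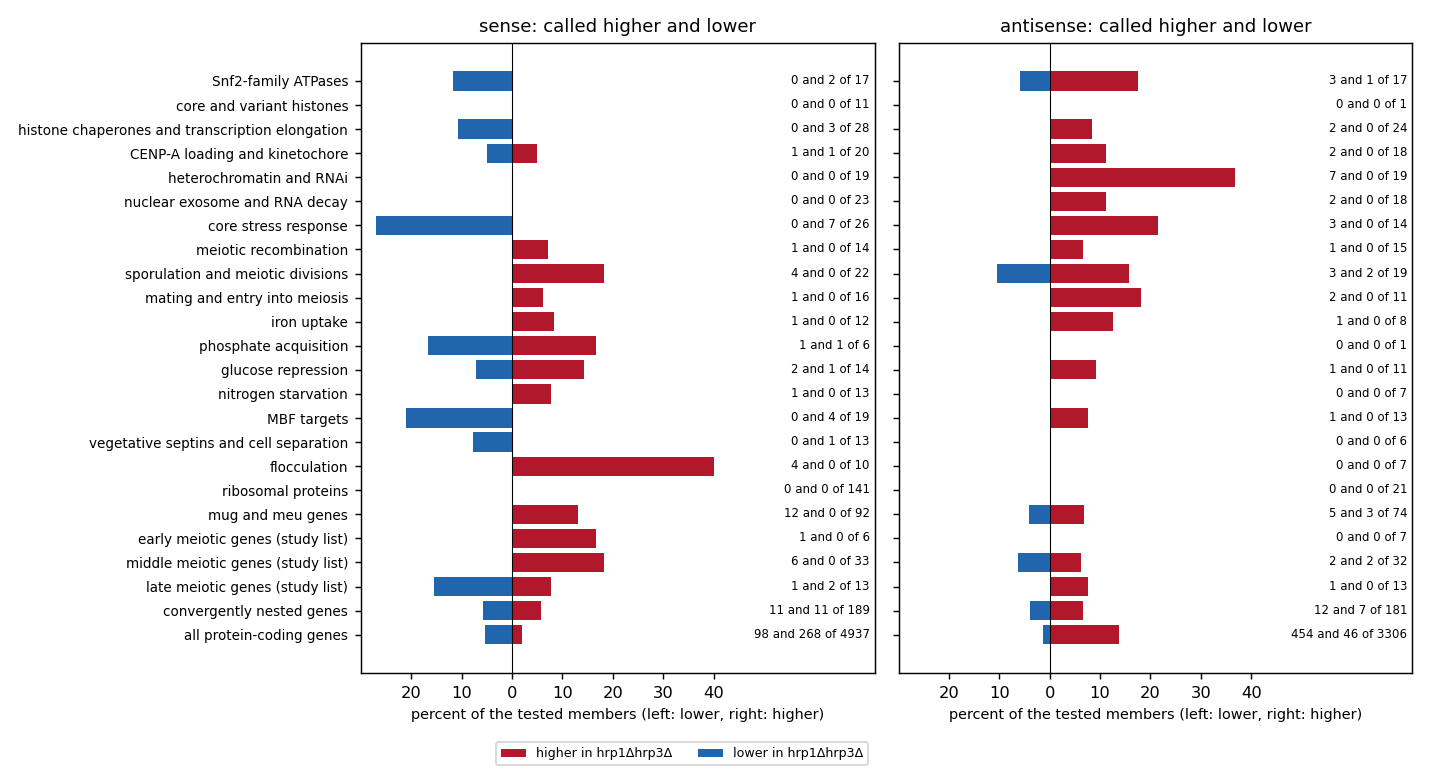
Percentage of the tested members of each gene list called higher (right, red) and lower (left, blue) in hrp1Δhrp3Δ against hrp3Δ, in sense (left panel) and antisense (right panel), with the counts called higher and lower of those tested at the right edge. Core stress genes fell in sense at 7 of 26, mug and meu genes rose at 12 of 92 and flocculation genes at 4 of 10, and heterochromatin and RNAi genes rose in antisense at 7 of 19. The bottom bars give all protein-coding genes.

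Some stress genes were lower in hrp1Δhrp3Δ than in the libraries labelled hrp3Δ. Of 26 tested core stress genes, 7 fell (26.9%, against 5.43% of all genes) and 0 rose, with a median of -0.29. They were the small heat shock genes hsp16 and hsp9, the glutathione transferase gene gst2, the metallothionein gene zym1, the glycerol phosphate dehydrogenase gene gpd1, rds1 and pmp3. Without any 1 library, 4 to 7 were called. Counts of hsp16 stood at 263, 264 and 275 CPM in hrp1Δhrp3Δ, against 747, 571 and 618 CPM in hrp3Δ (-1.35 ± 0.29, edgeR adjusted p 0.00983). The WT had 165, 191 and 83.6 CPM, so hrp3Δ was the high strain and the double mutant the nearer to WT. For gst2 the values were 451, 423 and 532 CPM against 981, 815 and 876 CPM (-1.01 ± 0.15, adjusted p 0.000722), with 389, 495 and 316 CPM in WT. By contrast rds1, a gene of glucose and nitrogen response, fell below WT, with 71, 56.2 and 85.4 CPM against 230.0, 157 and 221 CPM in hrp3Δ and 261 to 309 CPM in WT (-1.59 ± 0.20, adjusted p 0.000235). The call of zym1 (-0.87, adjusted p 0.0382) was lost without any library but hrp1Δhrp3Δ replicate 3 (up to 0.135) and with scaling on protein-coding counts (0.0533). Those of gpd1 and pmp3 were lost without hrp1Δhrp3Δ replicate 1, hrp1Δhrp3Δ replicate 2 or hrp3Δ replicate 3 (up to 0.0754 and 0.111). The regulators atf1, pcr1 and sty1 were not called.

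Of 6 phosphate acquisition genes, 1 rose and 1 fell (1.99% and 5.43% of all genes). One of the largest sense falls was at caf5, another transporter gene, which had 37.0, 33.7 and 38.0 CPM in hrp1Δhrp3Δ, against 144, 131 and 125 CPM in hrp3Δ (-1.96 ± 0.11, 3.9-fold lower, edgeR adjusted p 5.40e-08). It had 22.4, 19.1 and 28.4 CPM in hrp1Δ and 37.0, 35.9 and 26.7 CPM in WT, so the double mutant overlapped WT while every hrp3Δ library was more than 3 times higher. The phosphate transporter gene pho84 had 100 to 114 CPM in the 3 hrp1Δhrp3Δ libraries, against 206, 246 and 214 CPM in hrp3Δ (-1.13 ± 0.12, adjusted p 5.52e-05), with 82.1 to 95 CPM in WT. In the libraries labelled hrp3Δ of experiment A, caf5 was above WT by 1.68 and pho84 and hsp16 were below it, by -0.78 and -1.06, so the high pho84 and hsp16 levels of hrp3Δ were those of experiment B. On the other hand tgp1, a glycerophosphodiester transporter gene, rose to 52.2, 48.8 and 60.1 CPM in hrp1Δhrp3Δ, against 32.9, 28.2 and 33.9 CPM in hrp3Δ (0.68 ± 0.13, adjusted p 0.00451).

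Among glucose-repressed genes, 2 of 14 rose and 1 fell (1.99% and 5.43% of all genes). The invertase gene inv1 had 20.9, 16.9 and 18.8 CPM in hrp1Δhrp3Δ, against 10.8, 9.45 and 10.4 CPM in hrp3Δ (0.80 ± 0.18, edgeR adjusted p 0.01), and hrp1Δ and WT were at 2.47 to 4.85 CPM. The malic enzyme gene mae2 fell by 0.62 (adjusted p 0.00235), and the call of the glucosidase gene agl1 (0.64, adjusted p 0.0135) was lost without hrp1Δhrp3Δ replicate 3 (0.0556) or hrp3Δ replicate 3 (0.0673). Of 19 targets of MBF, the factor of G1/S transcription, 4 fell and 0 rose (21.1% lower, against 5.43% of all genes, median -0.05), and 6 fell in hrp1Δ over WT, where 7.23% of all genes did. The replication checkpoint target tos4 had 80.4, 57.2 and 65.9 CPM in hrp1Δhrp3Δ, against 102, 103 and 94.4 CPM in hrp3Δ (-0.65 ± 0.11, adjusted p 0.00202), with 131 to 162 CPM in WT. The MBF coactivator gene rep2 fell by 0.57 (adjusted p 0.00653). The ribonucleotide reductase gene cdc22 (-0.43) lost its call without hrp3Δ replicate 2 (adjusted p 0.0522) or hrp1Δhrp3Δ replicate 2 (0.0585), and ssb1 of RPA (-0.29) without hrp1Δhrp3Δ replicate 2 or 3 or hrp3Δ replicate 1 or 2 (up to 0.097) and with scaling on protein-coding counts (0.0661). None of 141 ribosomal protein genes was called, with a median of -0.02.

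Some further lists had few sense calls, beside 1.99% higher and 5.43% lower of all genes. Iron uptake had 1 of 12 higher, the ferric reductase gene frp1, and nitrogen starvation 1 of 13, the aldehyde dehydrogenase gene atd1, and both calls were lost without any library but hrp1Δhrp3Δ replicate 2 (edgeR adjusted p up to 0.216 and 0.103). Among 13 vegetative septin and cell separation genes, mid2, an anillin-like protein gene, fell by 0.44, a call lost without any library but hrp1Δhrp3Δ replicate 1 (for example 0.122 without hrp3Δ replicate 2) and with scaling on protein-coding counts (0.0683). Of the meiotic genes that the study lists as higher on hrp3 deletion, 1 of 6 tested early genes rose, and of 13 tested late genes 1 rose and 2 fell.

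Among the largest sense rises under the limit of 8 CPM, cmt2, a methyltransferase gene, had 148, 120.0 and 131 CPM in hrp1Δhrp3Δ, against 38.9, 42.8 and 37.4 CPM in hrp3Δ (1.65 ± 0.13, edgeR adjusted p 2.13e-06), while hrp1Δ had 25.1 to 35.3 CPM and WT 36.3 to 42.7 CPM. The double mutant stood alone here, and the interaction was 2.22 (adjusted p 1.36e-05). SPAC750.06c had 34.0, 17.2 and 16.3 CPM against 0 in the 3 hrp3Δ libraries, at least 59.7-fold higher, and ftm4 40, 53.4 and 44.3 CPM against 0.00051, 8.90 and 1.84e-06 CPM (3.82 ± 0.63, adjusted p 0.00164). Both were present in WT, at 1.88 to 8.00 CPM and 23.3 to 38.5 CPM, and in hrp3Δ ftm4 was near 0 in replicates 1 and 3 only. In hrp1Δ, SPAC750.06c had 0, 2.25 and 4.43 CPM. The pseudogene SPBCPT2R1.07c had 16.6, 11.3 and 16.3 CPM in hrp1Δhrp3Δ, against 0 in hrp3Δ and in WT, at least 39.1-fold higher. SPAC750.06c and ftm4 have consecutive systematic names, and the estimator may have split reads between near-identical copies of such genes, so these 3 are uncertain. Among the largest falls, hsp3101, of the DJ-1 family, had 3.26, 2.23 and 0.301 CPM against 14.3, 14.1 and 14.6 CPM (-2.98 ± 0.53, adjusted p 0.00267), and rmi1, a partner of RecQ helicases, 2.00, 2.77 and 3.43 CPM against 7.52, 9.08 and 8.03 CPM (-1.66 ± 0.23, adjusted p 0.000498). The call of ddr48 (-1.44, adjusted p 0.0361) was lost without hrp3Δ replicate 1 (0.0873), hrp1Δhrp3Δ replicate 2 (0.107), hrp3Δ replicate 3 (0.12) or hrp1Δhrp3Δ replicate 1.

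A run of neighbouring entries next to the mating-type locus mat1 was higher in hrp1Δhrp3Δ. It was picked after its values were seen, so no count over it is given. SPNCRNA.388 had 19.8, 21.7 and 21.9 CPM in hrp1Δhrp3Δ, against 0.347, 0 and 0.277 CPM in hrp3Δ (6.48 ± 0.88, edgeR adjusted p 0.000424), and SPBC23G7.10c had 15, 17.6 and 21.4 CPM against 0.463, 0.982 and 0.415 CPM (4.73 ± 0.82, adjusted p 0.00235). In hrp1Δ, SPBC23G7.10c had 22.5, 25.5 and 1.35 CPM, so replicate 3 lay near WT (0.135, 0.437 and 0.787 CPM) and apart from the other two. The proteasome ATPase gene rpt6, the last of the run, had 247, 250.0 and 275 CPM in hrp1Δhrp3Δ, against 97.8, 90.6 and 105 CPM in hrp3Δ and 141 to 148 CPM in WT (1.31 ± 0.10, adjusted p 2.13e-06). The small nucleolar RNA snoU14, by contrast, fell to 18.7, 17.7 and 13.4 CPM in hrp1Δhrp3Δ, against 41.6, 38.9 and 46.8 CPM in hrp3Δ (-1.44 ± 0.13, adjusted p 1.14e-05), while hrp1Δ had 22.1 to 26 CPM and WT 20.5 to 24.9 CPM. In poly(A)-selected libraries such a transcript is measured only through polyadenylated or longer forms.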

How the data were processed

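Poly(A) RNA was read with a strand-specific paired-end kit. According to the study's methods, the authors checked reads with FastQC and quantified transcripts with kallisto (version not given in the sources used here) against ASM294v2 from Ensembl. The deposited estimated counts cover each transcript entry and its reverse complement. The deposited TPM are the authors' kallisto values, scaled by effective length and to a total of 1000000, and were used only as an alternative for the antisense share. Reads shared between near-identical copies were divided by the estimator, so such genes are uncertain. The tables held 13994 entries, of which 6997 were transcripts, and 6851 of these matched RefSeq names (ASM294v3, names and neighbours only).

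Estimated counts were rounded and fitted with edgeR 4.0.16 (R 4.3.3, limma 3.58.1) over all 12 libraries of experiment B, with 1 coefficient per group, TMM factors from all features and filterByExpr (minimum count 10, total 15), which kept 10145 features. The study itself used DESeq2, which served here as an alternative (1.42.0). In a simulation of the double-mutant comparison on 10145 features, 192 of 200 changed features were recovered with 10 false calls. Only well-counted features were changed there, by 1 or 2 on the log2 scale, and all features shared 1 coefficient of variation of 0.118. It therefore gives no recovery rate for features with few counts or for smaller changes. Library totals of the 12 libraries ran from 7222368 to 10013173. Named genes are the deleted genes, the 10 called sense and antisense features (5 non-coding) with the largest change each way whose groups do not overlap and whose higher group reaches 8 CPM, the 5 largest interactions each way, called members of gene lists up to 4 per list, and genes the study names. Those rules, the lists and the comparison itself were chosen with earlier results of these data known. Alternatives were another scaling, DESeq2, other filters, the 2 groups alone, a replicate block and leaving out each library. Libraries of the other experiments were not used here, except those of the first batch of experiment A.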

Additional observations from a re-analysis of the deposited data

Results flagged for a closer look

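The interaction, the change of hrp1Δhrp3Δ over hrp3Δ less that of hrp1Δ over WT, was called for 35 of the features named by rule (edgeR adjusted p under 0.05), and no cause was tested. Values for features at or near 0 in a whole group depend on the prior count of the fit and give no size.

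At and beside the deleted loci it was -10.67 for hrp3, -11.79 for hrp3 antisense, -2.18 for hrp1 antisense and -4.06 for prp40 antisense. Among antisense features it was also negative for dip2 (-3.0), gup1 (-1.89), php2 (-1.52), sap1 (-1.38), abc1 (-1.29) and mam1 (-1.12), and positive for mbx2 (5.01), mib1 (2.99), byr2 (2.83) and taz1 (1.75). The mbx2 antisense value goes with 0.68, 0 and 0 CPM in hrp1Δ, against 8.11, 6.82 and 13.3 CPM in WT, while hrp1Δhrp3Δ and hrp3Δ overlapped.

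In sense, the double mutant gained more than hrp1Δ did for SPAC750.06c (11.87), ftm4 (3.92), pfl7 (2.28), cmt2 (2.22), SPCC737.04 (1.84), inv1 (1.42), rpt6 (1.19) and atd1 (0.73). The values were negative for spn6 (-4.24), hsp3101 (-3.32), rds1 (-1.78), zym1 (-1.57), SPAC15E1.02c (-1.37), gst2 (-1.35), caf5 (-1.29), mae2 (-0.84) and pho84 (-0.71). Among non-coding entries it was 5.15 for SPNCRNA.1674, -5.15 for SPNCRNA.555, -1.73 for SPNCRNA.1640 and -1.39 for snoU14.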

How the results depend on the processing

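No named call reversed its direction under any alternative run. In hrp1Δhrp3Δ against hrp3Δ, the 366 sense calls became 576 with the 2 groups fitted alone and 47 with an absolute log2 fold change above 1, and ranged from 173 to 234 when single libraries were left out. The 500 antisense calls became 782 with the 2 groups alone and ranged from 261 to 319 on leaving out libraries. The 109 non-coding calls became 52 above the fold threshold, with a range of 70.0 to 87 on leaving out libraries. In hrp1Δ against WT, the 511 sense calls became 309 with the 2 groups alone and 70.0 above the fold threshold, and ranged from 279 to 486, while the 452 antisense calls became 235 with the 2 groups alone and ranged from 307 to 377. The interaction had 98 sense calls, 151 with DESeq2 and 46 above the fold threshold (55 to 89 without single libraries), and 68 antisense calls (35 to 64). The difference in antisense share of 0.665 points was 0.243 points by TPM, 0.3 points at hosts without a quantified gene on the other strand, and 0.599 to 0.725 points without single libraries. The antisense median less the sense median, 0.51, was 0.63 at hosts without a quantified gene on the other strand and 0.51 to 0.56 without single libraries. The cause of these shifts was not tested, apart from the smaller number of libraries or features that the alternatives themselves bring.

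The replicate numbers do not pair the libraries: deviations of same-numbered hrp1Δhrp3Δ and hrp3Δ libraries correlated at -0.16, -0.18 and -0.01. With a replicate block there were 272 sense, 400 antisense and 95 non-coding calls, 433 and 385 calls in hrp1Δ against WT, and 71 and 46 interaction calls in sense and antisense. Of 133 named calls, 52 were lost on leaving out at least 1 library, 16 with the replicate block, 9 with scaling on protein-coding counts, 8 with DESeq2, 5 with no filter and 1 with a filter of 1 CPM. Among those lost with DESeq2 was ftm4 (adjusted p 0.0793). With 7222368 counts in the shallowest library, 3 counts stand for 0.415 CPM there. The filter, with a minimum count of 10, was stricter: 3306 of 5112 antisense features passed it, and the others were not compared.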
